A study of Mus musculus with 24 samples.

Results

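The cells described here are the controls of a CRISPR knockout study: mouse cells of acute myeloid leukaemia with the fusion oncogene MLL-AF9 and the nuclease Cas9, which received a non-targeting guide RNA. They were chosen by their labels alone, as the 3 columns of the deposited count table whose names hold the non-targeting guide mNTG2, and they are 3 of the 24 libraries of the series, which holds 8 groups of 3. The column names also hold YFP. Cells grown in RPMI-1640 with serum received lentivirus at a multiplicity of 0.3. They were kept in 2 ug/ml puromycin for 72 h from 48 h after transduction, and RNA was taken on day 9. The controls therefore carry the fusion, Cas9, an integrated guide vector and the drug selection that the knockout cells carry too. The labels name a single cell line and 1 control guide, and they do not say whether replicates 1, 2 and 3 came from separate cultures, so the spread given below may be technical.

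MLL-AF9 joins the amino-terminal part of the histone methyltransferase MLL (gene Kmt2a) to the carboxy-terminal part of AF9 (gene Mllt3). AF9 binds the elongation machinery and the histone H3 lysine 79 methyltransferase DOT1L, and fusion-bound genes such as the Hoxa genes and Meis1 stay active. In mice the fusion turns granulocyte-monocyte progenitors into leukaemia cells that grow in culture and keep myeloid features.

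Levels are given as CPM, the usual scaling of a gene's counts by the total counts of its library, and per kb of annotated exon (CPM per kb) where genes are compared with each other. A gene was called detected at 1 CPM or more in each of the 3 libraries. Unless stated otherwise, 3 values in a row are the CPM in replicates 1, 2 and 3, and a value with ± is the mean and SD of CPM per kb (n = 3). The libraries held 2433135, 3127008 and 2403044 counts, with 12782, 13131 and 13003 genes counted at least once. A gene with no count in any of the 3 libraries could still have a level of up to 0.377 CPM (3 counts of 7963187), a limit that covers counting error only. Ribosomal protein genes took 11.5%, 13.5% and 12.4% of the counts, and the 100 highest genes 22.3% to 23.7%. Protein-coding genes of the mitochondrial genome took 1.86% in replicate 1 and 0.945% and 0.965% in the others. Because all values come from 3 libraries of 1 group, no test was run: a paired exact permutation test of 2 genes over 3 libraries cannot go below p = 0.25 (two-sided). Instead, 2 neighbours in an order of levels were called apart when the lowest of the 3 values of one lay above the highest of the other. This rule does not pair values by library, so 2 genes said to overlap can still keep the same order in each library. By CPM without division by length, 33 of the 46 gene lists described below had the same highest gene as per kb. In bulk RNA, a low level in all cells and a high level in few cells cannot be told apart.

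Of 640 listed genes in 46 lists, 431 were detected (67.3%), against 44.2% of the 21474 protein-coding genes in the table. The classes differed: 72 of 167 lineage genes (43.1%), 94 of 149 transcription and chromatin factors (63.1%), 70 of 109 surface genes (64.2%) and 207 of 241 metabolic genes (85.9%) were detected. Some lists were put together for this kind of cell and others, such as the lymphoid, erythroid and stromal lists, for other cells. A share above or below the background, or a difference between classes, therefore describes the choice of genes as well as the cells. No count at all was found for 141 listed genes.

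The 20 highest genes of all by mean CPM were mostly those of the ribosome and cytoskeleton: Rpl37, Rplp1, Rpl11, Rps21, Rpl32, Rps14, Rpl31, Rps29, Rpl22 and Rack1 of the ribosome, Tmsb4x, Tubb5 and Actb of the cytoskeleton, and the chaperone gene Hsp90ab1. The mitochondrial genes mt-Nd4 and mt-Nd1 and the peroxidase gene Gpx1 were among them. The other 3 were myeloid: Ctsg, Ly6c2 and Srgn, encoding the granule proteoglycan serglycin, at 4351, 4795 and 6349 CPM.

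Genes of the primary granule list were among the most abundant of the lineage genes, and all 10 were detected. The list holds enzymes that promyelocytes pack into azurophil granules, such as Ctsg, Elane, Prtn3 and Mpo. It also holds genes that do not encode such enzymes, among them Plac8 and Calr. Ctsg, encoding the granule protease cathepsin G (chr14:56099881-56102574, minus strand), stood at 4831, 5168 and 5648 CPM and was the fourth highest gene of all by mean CPM. Elane, neutrophil elastase, stood at 889, 1163 and 857 CPM, and Prtn3, proteinase 3, at 697, 858 and 780.3. Mpo, the myeloperoxidase that makes hypochlorous acid, stood at 383, 378 and 290.0. Per kb the order was Ctsg (5049 ± 398), Plac8 (1648 ± 311), Calr (1057 ± 276), Elane (985 ± 171) and Prtn3 (449 ± 46.5), with Mpo (102 ± 15.2) and Ctsc (24.1 ± 3.52), the protease that activates the granule proteases, lowest. Ctsg and Plac8, Plac8 and Calr, and Elane and Prtn3 were apart, whereas Calr and Elane overlapped. Calr encodes an endoplasmic reticulum chaperone that is made in nearly every cell. The list as a whole, Plac8 and Calr included, took 1.44% to 1.48% of the counts in each library.

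The start regions of 4 of these genes are shown, those of the proteases Ctsg, Elane and Prtn3 and of Mpo, the classical azurophil granule enzymes; each is the 250 bases before the RefSeq transcription start (GRCm38.p6), 5′ to 3′ on the gene's strand. Capitals mark GAGGAA, the core that the myeloid factor PU.1 recognises, searched on both strands; no other motif overlapping it was searched. The motif was chosen after the levels were known, and all 4 genes shown hold it.
Ctsg (chr14:56102575-56102824, minus strand): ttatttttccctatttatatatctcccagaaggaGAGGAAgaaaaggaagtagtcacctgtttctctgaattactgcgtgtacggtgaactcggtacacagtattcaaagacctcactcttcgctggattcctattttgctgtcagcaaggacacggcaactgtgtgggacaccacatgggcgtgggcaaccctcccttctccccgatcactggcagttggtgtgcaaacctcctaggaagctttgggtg
Elane (chr10:79886062-79886311, plus strand): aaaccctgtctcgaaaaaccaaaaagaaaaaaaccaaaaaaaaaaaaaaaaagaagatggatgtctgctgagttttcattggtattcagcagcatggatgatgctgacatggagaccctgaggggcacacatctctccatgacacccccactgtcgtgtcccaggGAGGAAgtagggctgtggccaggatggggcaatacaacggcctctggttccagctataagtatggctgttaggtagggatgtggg
Prtn3 (chr10:79879417-79879666, plus strand): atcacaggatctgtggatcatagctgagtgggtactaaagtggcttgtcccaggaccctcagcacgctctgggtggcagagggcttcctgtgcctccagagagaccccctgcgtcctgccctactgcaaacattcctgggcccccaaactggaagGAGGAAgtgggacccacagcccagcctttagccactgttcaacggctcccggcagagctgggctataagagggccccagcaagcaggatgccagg
Mpo (chr11:87793534-87793783, plus strand): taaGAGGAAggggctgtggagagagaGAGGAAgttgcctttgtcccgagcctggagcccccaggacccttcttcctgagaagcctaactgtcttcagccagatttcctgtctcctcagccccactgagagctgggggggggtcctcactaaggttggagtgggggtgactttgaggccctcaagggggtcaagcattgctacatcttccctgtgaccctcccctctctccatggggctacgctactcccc
The match began 216 bases before the start in Ctsg, 85 in Elane, 95 in Prtn3, and 247 and 224 in Mpo. GAGGAA occurred in 6 of the 9 primary granule genes with a RefSeq start region and in 22.3% of 16317 protein-coding genes, a share that was 22.5% among detected and 22.2% among undetected genes. It occurred in 46.7% of 15 later neutrophil genes, which were low, and in 7 of 21 pyrimidine and purine synthesis genes, so it was not found in the primary granule list alone. The share was 20% of 25 glycolysis genes, 21.4% of 14 citric acid cycle genes and 0% of 10 cholesterol genes. Among the 500 highest genes per kb it was 21.6%. A match is a run of letters and shows no binding.

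Later neutrophil genes, which neutrophil precursors switch on as they mature, were low. Of the 18 listed, which include genes of later granules and others, 10 were detected. S100a8 and S100a9, the subunits of calprotectin, stood at 97.4, 54.4 and 65.7 and at 89.2, 55.3 and 51.2 CPM. Camp, the cathelicidin of specific granules, stood at 71.9, 49.2 and 72.4, and Ngp, another specific granule protein, at 96.6, 98.5 and 87. Neighbours among these 4 overlapped per kb, the highest being S100a9 (125 ± 39.9). All 4 lay below Ctsg, Elane and Prtn3 in each library. The mean of S100a9 per kb was above those of Mpo and Ctsc, whereas by CPM Mpo lay above all 4 in each library. Ltf, lactoferrin of the specific granules, was below 1 CPM in every library (0.822, 0.959 and 0.416), as were Chil3 and Retnlg. Ly6g, the antigen of mature mouse neutrophils, stood at 25.5, 48.6 and 36.6.

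Stem and progenitor genes were mixed, with 11 of 17 detected. Muc13 (194 ± 12), Cd93 (139 ± 20.4) and Cd48 (87.7 ± 31.2) were highest per kb. Cd34, the sialomucin of progenitors, stood at 202, 178 and 169 CPM. Kit, the stem cell factor receptor, stood at 54.3, 57.6 and 70.7, and Flt3, the FLT3 ligand receptor, at 85.1, 138 and 183. Kit varied little, whereas Flt3 was lowest in replicate 1 and highest in replicate 3. Ly6a, which encodes Sca-1, was near the detection limit at 3.29, 1.28 and 2.08. Hlf, Procr, Slamf1 and Tek, genes of primitive stem cells, had no count in any library.

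Of 20 monocyte and macrophage genes, 11 were detected. Ly6c2, encoding the Ly6C antigen of inflammatory monocytes, stood at 3869, 6230.2 and 5319.9 CPM, the sixth highest gene of all; 33% of its 50-base windows also occur in another gene. Adgre1, encoding F4/80, stood at 158, 246 and 277. Psap, a lysosomal saposin precursor, stood at 104, 271 and 316. Both were lowest in replicate 1. Lyz2, lysozyme M, was modest at 58.8, 54.7 and 68.7, and Cd14, the lipopolysaccharide co-receptor, stood at 6.16, 2.88 and 5.41. Csf1r, the receptor for the macrophage growth factor, was at 2.47, 0.640 and 1.25 CPM. C1qa, C1qb and Cd163 were among 7 genes of this list below 1 CPM in every library.

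All 12 pan-leukocyte genes were detected, led per kb by Arhgdib (605 ± 50.4), Rac2 (326 ± 25.8) and Cd53 (268 ± 43.8). Ptprc, encoding CD45, stood at 103, 93.4 and 102 CPM, so the labelled haematopoietic origin was matched by its defining marker. None of 8 NK genes and none of 12 stromal, endothelial and epithelial genes was detected; the highest of these, Col1a1, stood at 0, 0.959 and 0.416. Cd3e, which defines T cells, had no count. Of the B lymphoid list 2 of 12 genes were detected, Ighm at 69, 134 and 112 and Vpreb1 at 2.05, 1.60 and 2.50. Of the T lymphoid list 3 of 12 were, Lck at 14, 12.8 and 8.74, Bcl11b at 5.34, 3.84 and 7.49 and Gata3 at 2.05, 2.56 and 1.66. Summed, the B lymphoid list took 0.00736% to 0.0138% of the counts of a library, the T lymphoid list 0.00187% to 0.00255% and the erythroid list 0.00682% to 0.00991%.

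Of 12 erythroid genes 2 were detected: Klf1 (1.64, 3.52 and 1.66) and Hbb-bt, an adult beta globin (65.3, 95 and 79.1). Gata1 and the alpha globin gene Hba-a2 were below 1 CPM in every library. Hbb-bs, whose product is nearly the same protein as that of Hbb-bt, had no count; 58.3% of the windows of Hbb-bt occur in another gene. The mast cell and basophil list had 5 of 10 detected: Hdc, histidine decarboxylase, at 197, 166 and 151, Gata2 at 77.3, 53.1 and 100.3, Mcpt8 at 50.1, 56 and 31.2, Cpa3 at 16, 7.68 and 12.1 and Ms4a2 at 7.81, 4.48 and 6.66. Fcer1a, the alpha chain of the IgE receptor, had no count. Of the megakaryocyte and platelet list 3 of 8 genes were detected, Gp9 at 3.70, 2.88 and 3.75, Itgb3 at 3.70, 9.59 and 9.16 and Itga2b at 13.6, 4.80 and 2.91, the last with a mean of 7.09 CPM that was 3.85 without replicate 1. In the dendritic cell list 2 of 10 genes were detected (Tcf4 at 178, 174 and 228 and Ccr7 at 1.64, 1.92 and 1.66) and in the eosinophil list 1 of 6 (Siglecf at 3.29, 6.40 and 3.75). Pf4 stood at 1.64, 0.640 and 1.66 and Itgax, encoding CD11c, at 0.822, 0.320 and 1.25.

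**Figure D1:**
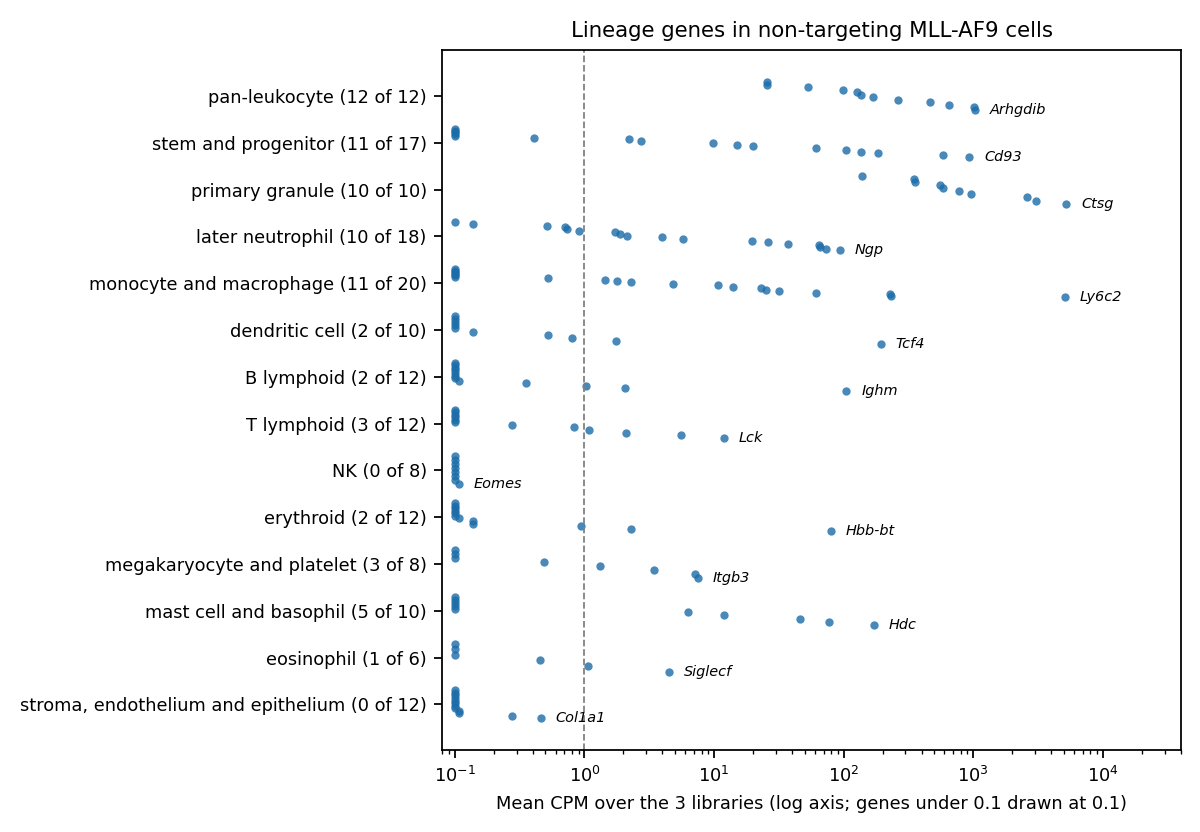
Mean CPM of each gene (points, log axis) in 14 lineage lists over the 3 libraries; the dashed line is 1 CPM, and the numbers beside each list are genes detected in every library of genes found. The primary granule and pan-leukocyte lists lie wholly to the right of the line, and in the lymphoid, erythroid and stromal lists most points lie to its left.

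Among the listed Hox, Meis and Pbx genes, the posterior Hoxa genes and their partner Pbx3 were highest. Hox proteins set positional identity in the embryo and hold blood progenitors in an immature state, and Meis and Pbx proteins are their DNA-binding cofactors. Hoxa9 (chr6:52223100-52231089, minus strand) stood at 270.0, 279 and 391 CPM and Hoxa10 at 206, 218 and 271. Hoxa11 stood at 88.8, 89.9 and 118 and Hoxa5 at 54.3, 39.3 and 67. Per kb, Hoxa10 (70.8 ± 10.6), Hoxa9 (56.1 ± 12.1) and Hoxa11 (43.3 ± 7.29) overlapped with their neighbours in the order, and Hoxa11 was apart from Hoxa5 (28.5 ± 7.38). Within each library, however, Hoxa10 lay above Hoxa9 and Hoxa9 above Hoxa11 per kb. By CPM Hoxa9 lay above Hoxa10 in each library. Hoxa7 was much lower at 11.5, 6.72 and 9.99 CPM, and Hoxa2 stood at 2.88, 1.60 and 2.50. In all, 6 of 11 Hoxa genes were detected. Hoxa13, Hoxa3, Hoxa4 and Hoxa6 had no count. Hoxa genes overlap on the genome and share spliced transcripts, and the strand setting of the counting is not given in the sources used here. Reads may therefore be split between neighbours.

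Outside the Hoxa cluster, 2 of 28 Hox genes were detected, Hoxc4 at 6.16, 4.48 and 14.1 and Hoxb7 at 4.93, 2.88 and 3.75. No count was found for 22 of the 28. The mean of Hoxc4 was 8.26 CPM and fell to 5.32 without replicate 3. Pbx3 stood at 288, 345 and 417 CPM and Meis1 at 91.2, 111 and 91.1. Per kb Pbx3 (57.3 ± 10.6) was apart from Pbx4 (11.4 ± 3.46), which overlapped Meis1 (9.27 ± 1.07). Pknox2 had no count.

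Of 16 myeloid factors 13 were detected, and most neighbours in their order of levels overlapped. Gfi1, a repressor needed for neutrophil fate, stood at 168, 187 and 258 CPM. Spi1, encoding PU.1, stood at 159, 126 and 105, Cebpa, the factor that commits progenitors to the granulocyte line, at 115, 86.3 and 68.2, and Cebpe, which drives later granule genes, at 65.8, 56.9 and 42. Each of these 3 was highest in replicate 1 and lowest in replicate 3. Irf8, a monocyte and dendritic cell factor, stood at 86.7, 121 and 97.4. From Gfi1 (64.1 ± 15) down to Irf8 (14.4 ± 2.50) no 2 neighbours were apart, and Runx1 (3.40 ± 0.439), Jun and Nr4a1 followed as separate steps. Klf4 and Egr1, which accompany monocyte maturation, had no count.

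In the stem cell heptad list, which holds the factors that bind together at progenitor enhancers along with Myb and Myc, 11 of 13 genes were detected. Lyl1 (134 ± 43.4), Lmo2 (108 ± 21.4) and Myb (81.3 ± 15.2) led per kb, each overlapping the next. By CPM Myb led, at 882, 664 and 633, with Lyl1 at 321, 239 and 164 and Lmo2 at 229, 190.0 and 282. Erg stood at 62.9, 75.8 and 60.3 and Fli1 at 138, 122 and 141. Tal1, the paralogue of Lyl1, was below 1 CPM in every library (0.822, 0.640 and 0.416), and Mycn had no count. Myc stood at 40.3, 36.5 and 149, so its mean of 75.4 CPM fell to 38.4 without replicate 3.

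**Figure D2:**
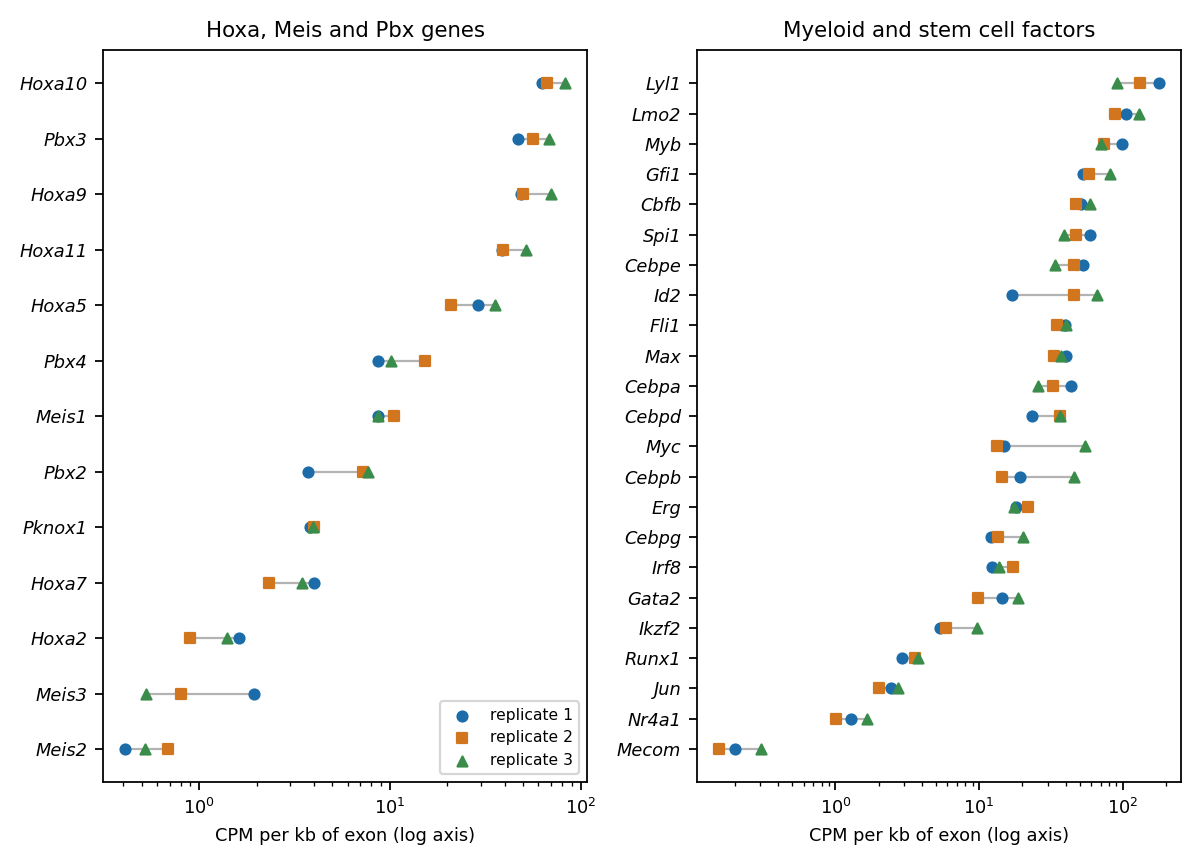
CPM per kb of exon (log axis) of the detected Hoxa, Meis and Pbx genes (left) and of the detected myeloid and stem cell factors (right), a symbol for each library. Hoxa10, Pbx3 and Hoxa9 top the left panel at means of 70.8, 57.3 and 56.1, and Myc, Cebpb and Id2 show the widest gaps between libraries on the right.

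Of 14 lineage factors of other branches 5 were detected: Nfe2 at 83, 121 and 110.3, Tcf3 at 48.5, 41.6 and 44.9, and Klf1, Bcl11b and Gata3, given above. Bcl11a, Ebf1, Eomes and Gata1 were among 8 below 1 CPM in every library. In the Ikaros, Stat and Irf families 16 of 21 were detected, led per kb by Irf1 (36.9 ± 8.67), Stat3 (24.4 ± 5.29) and Ikzf1 (22.1 ± 5.18), and Ikzf3 was below 1 CPM in every library.

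The genes of the fusion's own machinery were nearly all detected, at moderate levels: 21 of 22 genes of the MLL, DOT1L and elongation complexes. Of neighbours in their order, only Mllt10 and Aff4 were apart. Men1, encoding menin, which tethers MLL to chromatin, was highest per kb (24.9 ± 2.89), followed by Eaf1 (15.8 ± 8.37) and Paf1 (12.7 ± 2.70) of the elongation complexes. Dot1l stood at 69.5, 76.8 and 79.1 CPM, Mllt1 at 41.1, 28.5 and 23.3, Mllt6 at 30, 43.2 and 35 and Mllt10 at 16.9, 15 and 20.4; AF10 and AF17, the products of Mllt10 and Mllt6, are DOT1L partners, and the product of Mllt1, ENL, is a paralogue of AF9. Psip1, encoding LEDGF, stood at 41.9, 58.2 and 90.3. Kmt2a (14, 7.99 and 15) and Mllt3 (9.86, 4.16 and 6.66) were lowest of the detected genes per kb (0.739 ± 0.227 and 0.574 ± 0.238). Gene counts cannot tell the fusion transcript from the mouse genes, and whether the fusion is of mouse or human sequence is not given in the sources used here. Eaf2 was below 1 CPM in every library. Of 18 genes of the Polycomb and DNA methylation list 16 were detected. Idh1 (150.0 ± 20.8), Idh2 (133 ± 8.43) and Dnmt1 (37.2 ± 4.31) led per kb. Idh1 and Idh2 encode isocitrate dehydrogenases, metabolic enzymes that were counted with this list and so among the transcription and chromatin factors. Dnmt1, the maintenance enzyme, made up 95.6 ± 0.343% (SD, n = 3) of the per-kb level of the DNA methyltransferases and Ezh2 73.9 ± 9.20% of that of Ezh1 and Ezh2. Tet1 had no count.

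Among cytokine and growth factor receptors 17 of 26 were detected. Ifngr1, the ligand-binding chain of the interferon gamma receptor, stood at 937, 856 and 702 CPM and led per kb (292 ± 41.8), apart from Il2rg (107 ± 7.29), the common gamma chain, and Tnfrsf1a (40.9 ± 4.91). Csf2rb, the beta chain shared by the IL-3, IL-5 and GM-CSF receptors, stood at 180.0, 189 and 140.2, and Csf2ra, the GM-CSF-binding chain, at 6.58, 14.4 and 9.99. Il3ra, the IL-3-binding chain, was at 0, 0.959 and 0, below 1 CPM in every library. Csf2rb2, the mouse-specific second beta chain, stood at 33.3, 22.4 and 20.8, and Csf3r, the G-CSF receptor, was low at 6.16, 3.84 and 6.24. Per kb, Csf2rb (23.3 ± 3.58) lay above Csf2ra (3.59 ± 1.36) in each library. Il6ra and Il7r were among 6 receptors below 1 CPM throughout.

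Adhesion molecules were well represented, with 16 of 18 detected. Itgb1 (109 ± 15.2) and Pecam1 (65.1 ± 11.8) were among the 3 highest per kb. Itgam, encoding CD11b, stood at 11.5, 10.9 and 24.6 CPM and its partner Itgb2 at 136, 225 and 232, and the 2 were apart per kb. Itgal, the alternative partner of Itgb2, stood at 124, 130.2 and 128. Icam1 had no count. Of 12 chemoattractant receptors 4 were detected, Cxcr4, the CXCL12 receptor, at 80.1, 98.5 and 125, Ccr2 at 14.8, 26.2 and 28.3, Ccr1 at 10.7, 6.08 and 4.99 and Ccrl2 at 5.34, 16.3 and 5.83. The mean of Ccrl2 was 9.16 CPM and 5.58 without replicate 2. C3ar1, C5ar1 and Cxcr3 were among 7 below 1 CPM in every library.

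**Figure D3:**
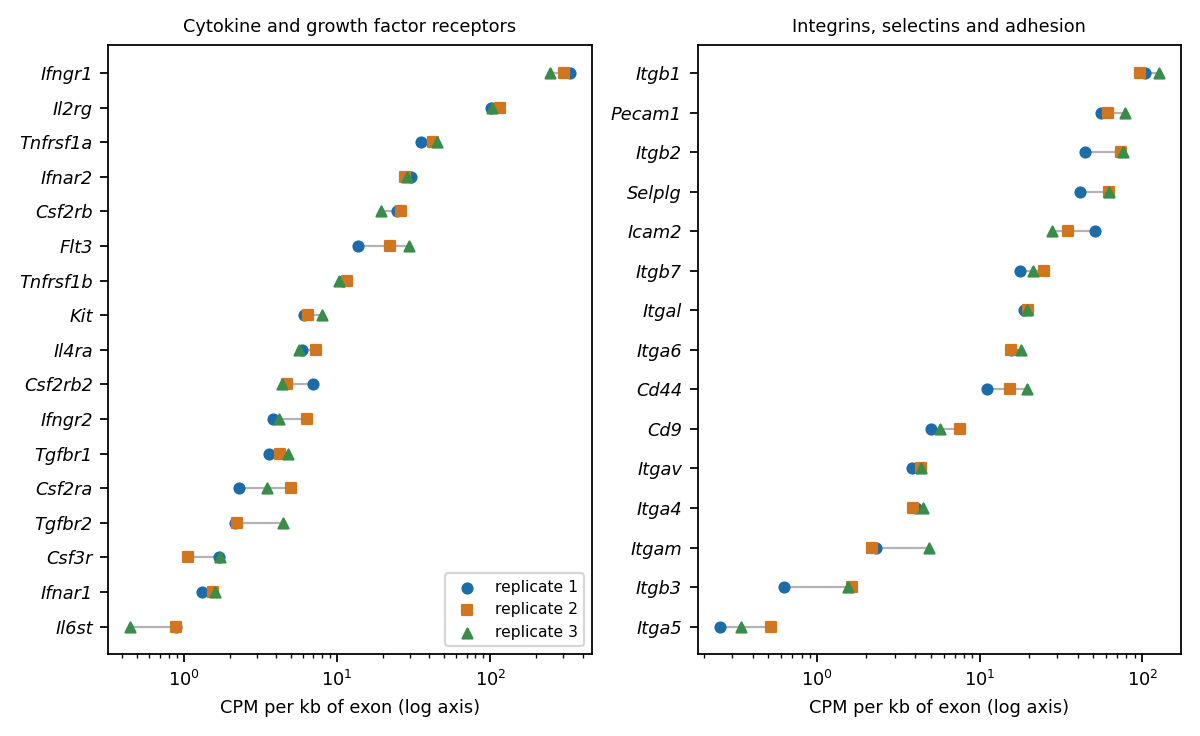
CPM per kb of exon (log axis) of detected cytokine and growth factor receptors (left) and adhesion molecules (right), a symbol for each library; 1 detected adhesion gene is not drawn. Ifngr1 stands apart at the top left at a mean of 292, Csf3r lies near the bottom at 1.5, and Itgb1 tops the right panel at 109.

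Immune recognition genes differed by class. In class I presentation 6 of 8 genes were detected, with B2m (704 ± 90.1), H2-D1 (122 ± 8.08) and H2-K1 (90.5 ± 8.71) on top. In class II presentation 6 of 9 were detected, but the accessory genes of peptide loading H2-DMa (126, 144 and 115) and H2-Ob (34.9, 95.6 and 107) were above the invariant chain Cd74 (2.05, 1.60 and 4.58) and the antigen-presenting chain H2-Aa (1.64, 4.16 and 4.99), also per kb. Ciita, the class II master regulator, and H2-Ab1 were below 1 CPM in every library. Among Fc, lectin and Siglec receptors 12 of 16 were detected, led per kb by the signalling adaptors Fcer1g (439 ± 84.2) and Tyrobp (398 ± 118) and by Fcgr3 (99 ± 8.92).

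Of 14 checkpoint genes 7 were detected. Tnfrsf9, encoding the costimulatory receptor 4-1BB, stood at 985, 1689 and 992 CPM and was the highest of the list per kb (449 ± 149), overlapping Lgals9 (299 ± 64.5), encoding galectin-9. Cd47, the don't-eat-me signal read by macrophages, stood at 417, 427 and 842, highest in replicate 3. Cd274, encoding PD-L1, stood at 0.822, 0 and 1.66. Of 13 antigens studied as targets in human acute myeloid leukaemia 6 were detected, with Cd47, Clec12a (85.9, 161 and 176) and Cd44 (74.8, 104 and 132) on top and Cd33 at 34.9, 36.1 and 38.3. Cd38, Cd70, Cd96 and Folr2 were among 6 below 1 CPM in every library.

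Aldoa, Ldha and Pkm were the highest glycolytic genes per kb. Aldoa, aldolase A, stood at 2002, 2853 and 2089 CPM, Ldha, lactate dehydrogenase A, at 1880.3, 2045 and 2169.8 and Pkm, pyruvate kinase M, at 2152, 2838 and 2193. Per kb they ran Aldoa (795 ± 161), Ldha (614 ± 43.9), Pkm (479 ± 76.9), each apart from the next. Without division by length that order changed, and Pkm lay above Ldha in each library. Of 29 glycolytic genes 21 were detected, and the 8 below 1 CPM in every library, among them Eno2 and Ldhb, had no count. Gapdh, Eno1 and Pgk1 had low counts, and most of their windows occur in another gene, as described below. The part of shared sequence in these low counts was not tested. The counts therefore do not show that only a few glycolytic enzymes were high.

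Most enzyme families were carried by 1 or 2 isozymes. Hexokinase was split: Hk1 made up 53.6 ± 7.95% of the per-kb level, Hk3 34.2 ± 9.68% and Hk2 12.1 ± 1.78% (mean and SD of shares, n = 3). The share of Hk1 was 61.7%, 53.5% and 45.8%, and that of Hk3 24.2%, 35% and 43.5%, so the order of the 2 was the same in each library and the gap was smallest in replicate 3. Pfkl, the liver-type phosphofructokinase, made up 60.6 ± 5.23%, Pfkp 30.4 ± 3.81% and Pfkm 8.93 ± 3.45%. By CPM alone Pfkl (498, 462 and 383) and Pfkp (397, 529 and 427) overlapped. Slc2a1, the GLUT1 glucose transporter, made up 74.1 ± 2.18% and Slc2a3 the rest. Slc16a3, the lactate exporter MCT4, made up 84.7 ± 3.98% against Slc16a1. Pdk3 made up 63.3 ± 4.27% of the pyruvate dehydrogenase kinases and Pdk1 36.7 ± 4.27%, while Pdk2 and Pdk4 had no count. Without division by length that order was reversed, with Pdk1 at 189, 247 and 305 CPM and Pdk3 at 133, 123 and 161. Scd2 accounted for 99.9% to 100% of the stearoyl-CoA desaturases in each library and Shmt2, the mitochondrial form, for 90.3 ± 1.35% of serine hydroxymethyltransferase. Bcat1, the cytosolic branched-chain aminotransferase, made up 58.3 ± 14.6%, and its share was below that of Bcat2 in replicate 3 (42.8% against 57.2%). By CPM Bcat1 (27.5, 16.3 and 14.1) was above Bcat2 (4.52, 4.48 and 7.91) in each library.

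**Figure D4:**
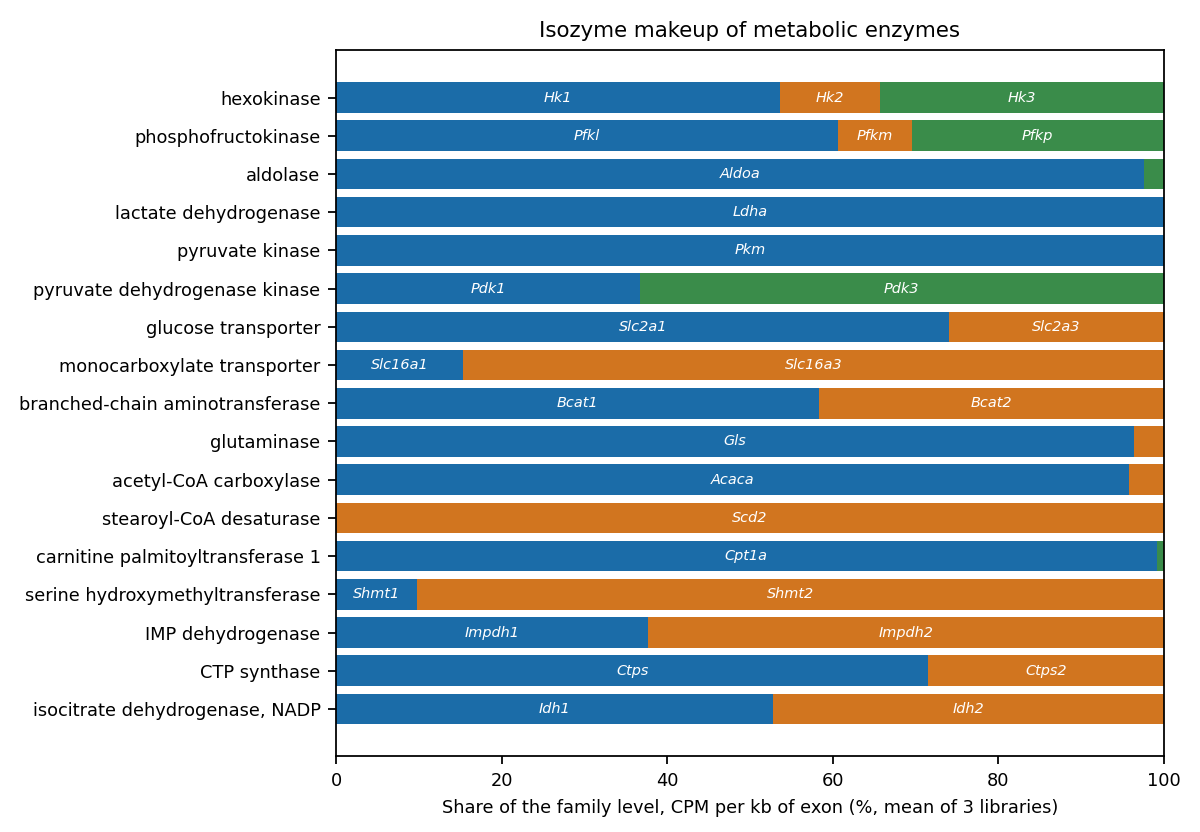
Share of each isozyme in its family's summed CPM per kb of exon (%, mean of 3 libraries), a bar for each of 17 families. Lactate dehydrogenase and pyruvate kinase are a single colour, whereas hexokinase is split into Hk1 (53.6%), Hk2 (12.1%) and Hk3 (34.2%).

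All 24 pyrimidine and purine synthesis genes were detected, led per kb by Paics (376 ± 31.2), a bifunctional purine enzyme, Dut (323 ± 32.5) and Hprt (283 ± 4.37). All 17 citric acid cycle genes were detected, led by Mdh2 (144 ± 17.8), Idh2 (133 ± 8.43) and Sdhb (109.8 ± 10.8). Of 14 serine and one-carbon genes 11 were detected, with Psat1 (156 ± 26.7) and Shmt2 (132 ± 11) above Phgdh (12.2 ± 2.16), the entry enzyme of serine synthesis, in each library. Asns, asparagine synthetase, stood at 203, 230.3 and 198 CPM, and 14 of 15 genes of its list were detected, led by Slc3a2 (288 ± 66.1), the heavy chain of amino acid transporters, Glud1 (121 ± 15.1) and Got2 (102 ± 23.7). Odc1, the first enzyme of polyamine synthesis, was modest at 48.1, 36.8 and 37.5 CPM, while Srm, spermidine synthase, stood at 598, 284 and 232, highest in replicate 1. Srm led its list per kb (232 ± 124), with Oaz1 (47.7 ± 4.69) and Azin1 (12.2 ± 2.72) next, and 8 of 12 genes were detected. Arg1, Arg2 and Ido1 had no count.

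Of 13 fatty acid synthesis genes 11 were detected, led by Scd2 (249 ± 37.1), Elovl5 (69.6 ± 5.35) and Fasn (48.2 ± 15.7), and Scd1 was below 1 CPM. Of 17 cholesterol genes 16 were detected, led by Pmvk (74.5 ± 13.3), Mvd (72.5 ± 12.1) and Fdps (39.8 ± 6.41). In fatty acid uptake and oxidation 8 of 14 were detected, with Acadl (72.2 ± 14.1), Cpt2 (20.8 ± 2.81) and Hadha (10.4 ± 1.19) on top and Cpt1a, the carnitine shuttle enzyme, at 29.2, 32.9 and 29.5 CPM. Of 9 pentose phosphate genes 8 were detected, led by Taldo1 (589 ± 13.7), Pgls (79.3 ± 7.99) and Pgd (37.8 ± 5.96). All 16 redox genes were detected, led by Gpx1 (2261 ± 349.6), Prdx1 (317 ± 35.7) and Prdx5 (251 ± 54.1). Of 12 iron and haem genes 10 were detected, with Fth1, ferritin heavy chain, at 1389.6, 1955 and 1919.7 CPM and Tfrc, the transferrin receptor, at 212, 137 and 141. Per kb Fth1 (506 ± 91.3) was followed by Ftl1 (35.5 ± 20.4) and Alas1 (31.2 ± 4.28).

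Respiratory chain genes of the nucleus were detected in 23 of 24 cases, led per kb by the cytochrome oxidase subunits Cox6a1 (2227 ± 71.6), Cox7a2 (1408 ± 71.9) and Cox4i1 (1003 ± 187), and Cox4i2 had no count. Of 13 mitochondrially encoded genes 11 were detected, led by mt-Nd1 (3491 ± 1573), mt-Cytb (2749.8 ± 1548) and mt-Nd4 (2598 ± 1356), each highest in replicate 1. Of 12 genes of the pyruvate dehydrogenase list 9 were detected, led by Pdhb (69 ± 4.87), Pdk3 (54.3 ± 7.72) and Pdk1 (31.8 ± 7.45); Mpc1, a subunit of the mitochondrial pyruvate carrier, had no count while its partner Mpc2 stood at 103, 121 and 131 CPM.

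The start regions of Ldha and Paics are shown beside those of the granule genes because they differ in base makeup, and both hold the motif; capitals mark CACGTG, the E-box that Myc and related factors recognise, chosen after the levels were known.
Ldha (chr7:46845554-46845803, plus strand): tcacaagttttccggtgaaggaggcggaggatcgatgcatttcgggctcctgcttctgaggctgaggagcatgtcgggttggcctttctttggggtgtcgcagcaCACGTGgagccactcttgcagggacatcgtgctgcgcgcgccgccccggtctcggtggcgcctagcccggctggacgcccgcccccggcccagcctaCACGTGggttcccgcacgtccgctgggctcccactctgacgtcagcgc
Paics (chr5:76951052-76951301, plus strand): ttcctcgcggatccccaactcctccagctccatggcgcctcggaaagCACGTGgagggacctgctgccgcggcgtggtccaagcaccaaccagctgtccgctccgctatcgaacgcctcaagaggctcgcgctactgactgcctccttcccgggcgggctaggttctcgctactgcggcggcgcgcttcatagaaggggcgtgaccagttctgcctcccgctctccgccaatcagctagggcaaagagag
The matches began 145 and 48 bases before the start in Ldha and 203 in Paics, and CACGTG occurred in 6.85% of the 16317 start regions, in 8.72% of detected and 5.19% of undetected genes. It occurred in 3 of 25 glycolysis genes and 4 of 21 pyrimidine and purine synthesis genes, so most genes of both lists lacked it. RefSeq lists 2 start regions for Ldha, and the first was used. These regions hold 25 and 24 CG dinucleotides, against 7, 3, 4 and 2 in those of Ctsg, Elane, Prtn3 and Mpo. The median was 13 in the glycolysis list, 18 in the pyrimidine and purine synthesis list and 4 in the primary granule list. Over all protein-coding genes with a start region it was 17 for detected and 4 for undetected genes. TATAAA occurred in 5.69% of detected and 17.1% of undetected genes. These shares describe the whole gene set and draw nothing about a factor.

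Several genes with sequence shared with other genes had low counts. Gapdh, a glycolytic enzyme made in nearly every cell, stood at 2.47, 2.56 and 1.25 CPM, and 82.5% of its 50-base windows also occur in another annotated gene. Eno1 (10.7, 8.63 and 18.7, 72.2% shared), Pgk1 (23, 24.9 and 39.9, 68%) and Gpx4 (1.64, 1.60 and 3.75, 61.7%) were low too. In the mitochondrial genome mt-Nd1 stood at 5077, 2409.7 and 2536 and mt-Cytb at 5188, 2030.1 and 2219.7, with no shared window, whereas mt-Co2 (35.3, 24 and 20.4) and mt-Co3 (6.58, 3.84 and 9.16) share 100.0% and 99.9%. The pattern has exceptions: mt-Nd4 shares 62.2% and stood at 5735, 2598 and 2408, and mt-Atp8 shares none and was below 1 CPM. Rplp1 (60% shared, mean of 6064 CPM), Rpl11 (62.2%, 5650) and Rpl31 (70%, 3240) were, like mt-Nd4, among the 20 highest genes of all. The rest of those 20 genes share less than 50%. Over all protein-coding genes, 314 of 1912 with more than 50% of windows shared were detected (16.4%), against 46.6% of those with none and 47.4% of those in between. The part of shared sequence in these levels was not tested, and the low values are not read as absence.

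**Figure D5:**
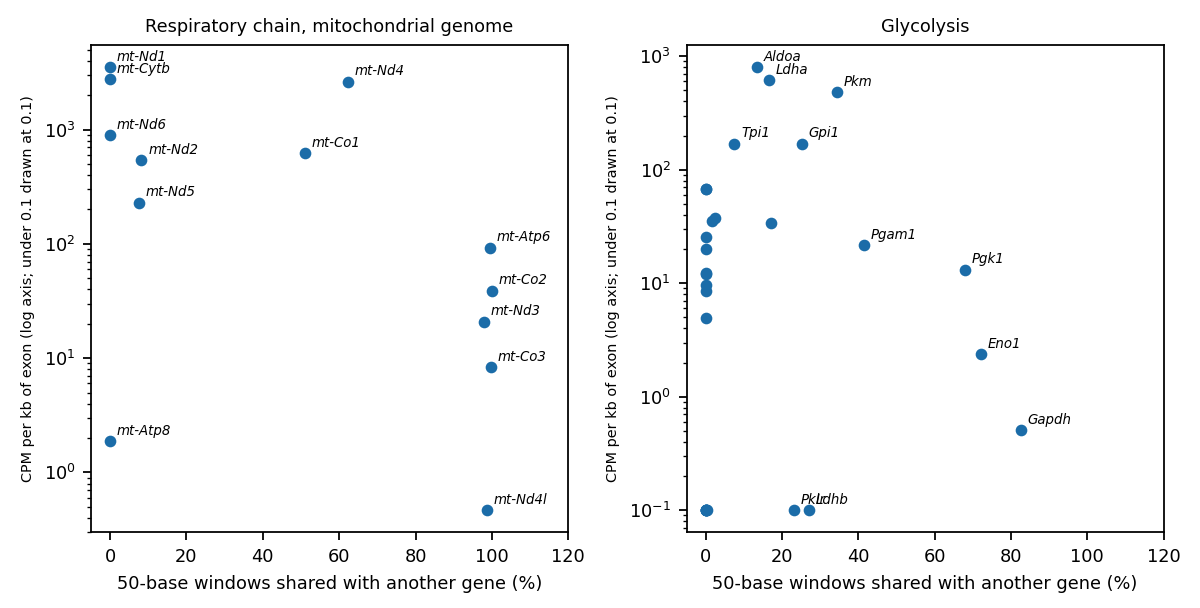
CPM per kb of exon (log axis, genes under 0.1 drawn at 0.1) against the share of a gene's 50-base windows that occur in another gene (%), for mitochondrial genes (left) and glycolytic genes (right), means of 3 libraries. Gapdh and Eno1 lie at the lower right of the glycolysis panel, and mt-Nd4 lies high at 62.2% shared.

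The 3 libraries differed by more than counting noise (chi-square per gene 11.1, 13.9 and 7.81 for the 3 pairs), and the biological coefficient of variation from edgeR was 0.214 over 8851 genes. Among 326 listed genes with at least 50 counts in each library, 27 (8.28%) varied more than 2-fold in CPM between the highest and lowest library, against 347 of 5854 genes in all (5.93%). The widest ratio was that of Sdhd, a succinate dehydrogenase subunit, at 20.5, 27.8 and 159 CPM; its mean of 69.1 was 24.2 without replicate 3. Myc, Id2, Cebpb, Eaf1, H2-Ob, Psap, Adssl1 and Hk3 were also highest in replicate 3, by 2.60-fold (Hk3) to 4.10-fold (Myc), and Srm was highest in replicate 1 by 2.58-fold. Id2, an inhibitor of E proteins, stood at 41.1, 111 and 161, and Cebpb, a factor of macrophage and emergency neutrophil production, at 29.2, 21.7 and 68.7, a mean of 39.9 that was 25.5 without replicate 3. Between 153 of 406 neighbours in the orders the 3 values did not overlap.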

How the data were processed

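Total RNA of 24 libraries was sequenced; the 3 non-targeting libraries were grouped by their titles and analysed here. The deposited table holds raw read counts per gene, and the submitters' processing notes name bcl2fastq, HISAT2, HTSeq, DESeq2 and mm10, without versions, options or strand setting. The authors' counts were used as deposited for 43629 Ensembl identifiers, of which 1167 matched no symbol in GENCODE M21 (GRCm38) and took 0.191% to 0.242% of the counts. One of 641 listed symbols was not found. Some listed genes are counted but not reported by name here. The members and lists were chosen with earlier results of these data known.

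CPM is counts over the library total; CPM per kb divides by the union of annotated exons. Shared 50-base windows were counted on either strand between a gene's longest coding transcript and transcripts of other genes. Spread was estimated with edgeR 4.0.16 (TMM, filterByExpr), and scripts were tested on simulated data. Named were the 20 highest genes, the 3 highest per list per kb, members below 1 CPM in every library (up to 4 where there were more than 5), a fixed set of defining genes, and the 10 listed genes of widest ratio. Alternatives were TMM and DESeq2 1.42.0 size factors, other minimums, other lengths and leaving out each replicate. Exon length was checked within 3 lists of protein complex subunits, which are made in like amounts within a complex. The chaperonin, coatomer and exosome were pooled in 1 list, so differences between those complexes enter the slope. The slope of log2 CPM on log2 exon length was 0.51 (r = 0.23) over 64 genes. Division by length, which fits a slope of 1, is therefore a convention here.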

Additional observations from a re-analysis of the deposited data

How the results depend on the processing

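The counts of genes detected (10289) and of listed genes detected (431) were identical under TMM over the 3 libraries, TMM over all 24 and DESeq2 size factors, and ranged over 8518 to 14680 and 380 to 499 under other minimums. Leaving out each replicate gave 10471 to 10614 and 435 to 438. The slope of log2 CPM on log2 exon length was 0.51, 0.49 with the median coding transcript and 0.65 with the longest transcript, and the cause was not tested. The biological coefficient of variation was 0.181 to 0.25 when each replicate was left out, and 204 to 228 neighbours were apart with 2 libraries, where fewer values can overlap. Without division by length, 33 of 46 lists kept the same highest gene. Of 178 named genes at a mean of 5 CPM or more, no scaling moved a mean by more than 1.06-fold; the 6 moved by over 1.5-fold without a replicate are given with their genes. Depth limits genes near 1 CPM. No paired analysis was possible because no groups were compared, so the replicate numbers pair no samples.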
